A study of Mus musculus with 31 samples.

Results

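Monosome RNA was compared with total RNA in the embryonic day 13 (E13) neocortex of mice labelled HuR cKO, across all genes. The comparison used 5 of the 31 libraries of the study, 3 of monosome RNA and 2 of total RNA, chosen by genotype, age and RNA fraction alone, and 12302 genes were tested. All 5 came from brain neocortex of the same genotype, labelled as a conditional knockout of HuR, which is the product of Elavl1 and binds RNA. The labels name neither the Cre driver nor the deleted part of the gene, and do not say whether the libraries came from separate animals or pools. Lysates were made in 0.1 mg/ml cycloheximide, which holds ribosomes on mRNA, and were spread on a sucrose gradient that was collected in 14 fractions. Equal volumes of RNA from gradient fractions 4 to 7, the region of free ribosomal subunits and single ribosomes, made up what is called monosome RNA here. Cortices were fresh or frozen and gradients of a larger or a smaller volume were used, and the labels do not say which library came from which. WT E13 libraries (2 monosome, 2 total) and HuR cKO libraries from the day of birth, P0 (2 monosome, 3 total), were set beside the main comparison, as were the 3 polysome libraries (gradient fractions 9 to 12) of HuR cKO E13 neocortex.

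An mRNA that is being read by many ribosomes sediments deep in such a gradient, in the polysome fractions. An mRNA with a single ribosome, with only a scanning small subunit, or held in a particle of similar mass sediments in the pool measured here. The number of ribosomes an mRNA can carry rises with the length of its reading frame and with the rate of initiation, so mRNAs of short proteins and of poorly initiated transcripts are known to be found in light fractions. Messenger RNAs of ribosomal proteins and translation factors begin with a terminal oligopyrimidine (TOP) tract, through which the mTOR pathway sets their entry into polysomes. HuR binds AU-rich and U-rich elements and is known to affect the stability and translation of its targets in the developing neocortex.

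Values are FPKM, fragments per kilobase of transcript scaled to the mapped fragments of the library, so a level is relative to the RNA of its own library. A higher value in monosome RNA therefore means a larger share of the monosome library than of the total RNA library, and says nothing of the absolute amount of a transcript on single ribosomes. Differences are given on the log2(FPKM + 1) scale with their standard error (SE) as monosome minus total RNA, for genes with a mean of at least 1 FPKM over the 16 HuR cKO libraries. Called genes are those with a limma adjusted p under 0.05. On this scale changes of genes near 1 FPKM are understated. The FPKM of the 5 libraries summed to between 606449 and 984871, and 13698 to 15536 genes had a value above 0. Without counts in the files, the depth behind each value is unknown.

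Of the 12302 genes, 1199 were called (9.75%), 742 higher (6.03%) and 457 lower (3.71%) in monosome RNA, and the median difference of all genes was 0.06. The higher genes included poly(A)-binding proteins, some ribosomal proteins, snoRNA host transcripts and many genes of very short proteins. The lower genes included most proteasome subunits, subunits of the TRiC chaperonin, tubulins, actin and DNA replication factors. Of the called genes, 1191 had values that did not overlap between the groups, beside 5141 of all 12302 genes tested (41.8%).

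These calls rest on the total RNA library called column c0 here. With the total RNA group reduced to column c1, limma called 0 genes, with 1725 genes at an unadjusted p under 0.05, against 3389 with both, and the smallest adjusted p was 0.0578. All 1199 called genes kept their direction in that fit and 983 of them had an unadjusted p under 0.05. Their median absolute difference went from 1.05 to 0.90 and their median SE from 0.27 to 0.33. Total RNA c0 lay farther from the monosome libraries than c1 did. Across all genes the mean of the monosome libraries differed from total RNA c0 with a standard deviation of 0.70 and from c1 with 0.53, while the total RNA libraries differed from each other by 0.52. For the genes called higher the median difference was 1.14 against c0 and 0.94 against c1, and for the genes called lower it was -1.32 and -0.86. Leaving out monosome c0 left 366 calls and leaving out monosome c2 left 591. The median of most gene lists is therefore given against each total RNA library too.

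Elavl1, the targeted gene (chromosome 8, 4284781 to 4325140, minus strand, GRCm38.p6), was present in every library. It measured 83.9, 80.0 and 82.0 FPKM in monosome RNA and 55.4 and 42.5 FPKM in total RNA of the libraries labelled HuR cKO, beside 28.5 and 39.5 FPKM in WT E13 total RNA and 42.4 and 13.5 FPKM in WT E13 monosome RNA. Total RNA of the libraries labelled HuR cKO was thus not below that of WT, which goes against the label at the level of the gene. At P0 total RNA measured 17.8, 25.1 and 28.5 FPKM in libraries labelled HuR cKO and 13.5, 15.2 and 15.2 FPKM in WT. The values of each genotype came from a table of its own, which may have been scaled separately. All 3 monosome values lay above both total RNA values, by 0.74 ± 0.23, and the gene missed the threshold (limma adjusted p = 0.0501). In WT E13 the same difference was -0.46 ± 0.37, and the difference between the genotypes, 1.21 ± 0.44, was not called (limma adjusted p = 0.999). One value for the whole gene cannot show reads over the deleted part, which the labels do not name, so the knockout was not checked by it and HuR cKO is used below as a label only.

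The tissue label was checked on 14 neocortex markers (Emx1, Tbr1, Eomes, Neurod6 and others). None was at 0 in all 5 libraries, and their summed level was 957.5 to 1123 FPKM in monosome RNA and 564.4 to 852.4 FPKM in total RNA. Of markers of other cells, 8 erythroid genes summed to 3662 to 6611 FPKM in monosome RNA and to 6238 and 15770.0 FPKM in total RNA c1 and c0. Endothelial markers (7) summed to 20.6 to 33.4 FPKM in monosome RNA and to 54.6 to 57.1 in total RNA, meningeal markers (7) to 25.1 to 35.3 and 44.0 to 57.1, microglial markers (7) to 20.2 to 53.3 and 29.1 to 38.6. Ganglionic eminence markers (7) summed to 2.57 to 14.3 and 5.91 to 13.4 FPKM, and markers of choroid plexus and hem (7) to 59.1 to 189.8 and 90.97 to 339. No marker of these sets was at 0 in all 5 libraries. The endothelial and meningeal sums were higher in both total RNA libraries than in any monosome library, the erythroid sums overlapped, and the part of these cells in the differences below was not tested. In bulk samples fewer cells of a type and less RNA per cell cannot be told apart.

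Among called genes without overlap between groups that averaged 5 FPKM or more in monosome RNA, Moap1, Npy and Pabpc1 had the largest increases. Pabpc1 encodes the main cytoplasmic poly(A)-binding protein, which holds the mRNA tail and promotes initiation, and its own mRNA carries both a TOP tract and an adenine-rich leader that the protein binds. Pabpc1 measured 1110.3, 659.7 and 899.9 FPKM in monosome RNA and 127 and 308 FPKM in total RNA, a difference of 2.13 ± 0.40 (limma adjusted p = 0.0112). Its paralog Pabpc4 measured 148, 122 and 127 FPKM against 29.2 and 53.1 (1.71 ± 0.27). For both genes the monosome values lay far above both total RNA values, and polysome RNA lay below total RNA, by -0.92 ± 0.40 for Pabpc1 and -0.38 ± 0.27 for Pabpc4 (not called; the total RNA libraries are shared).

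Slc25a23, a calcium-dependent mitochondrial carrier of adenine nucleotides, had the smallest adjusted p of all genes (0.000988, limma). Its levels were 216, 228 and 221 FPKM in monosome RNA and 51.5 and 66.3 FPKM in total RNA, a difference of 1.90 ± 0.22 with almost no spread among the monosome libraries. Cacng4, an auxiliary subunit of AMPA receptors, measured 149, 195 and 122 FPKM against 30.6 and 47.3 (1.98 ± 0.30). Ids, a lysosomal sulfatase, measured 47.7, 54.9 and 44.9 FPKM against 11.2 and 17.0 (1.76 ± 0.29). These genes also rose in WT E13 neocortex, Slc25a23 by 1.63 ± 0.25, Cacng4 by 1.67 ± 0.23 and Ids by 1.48 ± 0.31.

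Several of the 12 genes with the largest increase encode very short proteins or precursors. Npy, the precursor of neuropeptide Y, has 97 residues and measured 7.94, 8.81 and 2.83 FPKM in monosome RNA and 0.406 and 0.359 FPKM in total RNA (2.33 ± 0.40). Pcp4, a small regulator of calmodulin with 62 residues, measured 49.7, 44.4 and 46.8 FPKM against 8.61 and 19.7 (1.77 ± 0.33). Cox7a1, an 80-residue subunit of cytochrome c oxidase, measured 10.5, 10.9 and 10.9 FPKM against 1.90 and 3.34 (1.73 ± 0.43). Tmsb15b2, a beta-thymosin of 80 residues that binds actin monomers, measured 46.1, 21.4 and 25.6 FPKM against 14.4 and 2.99 (1.95 ± 0.46), and reads may be split with its close copy. In WT E13 neocortex Npy also rose (1.49 ± 0.48). Pcp4 (1.05 ± 0.49), Cox7a1 (0.31 ± 0.53) and Tmsb15b2 (-0.03 ± 0.46) were not called there.

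The remaining genes of this group were low or variable. Moap1, which encodes a modulator of apoptosis that binds Bax, measured 20.3, 7.58 and 13.6 FPKM in monosome RNA and 0.00293 and 5.75 FPKM in total RNA (2.42 ± 0.61), so its rank rests on a total RNA value near 0 in c0. Ptgds, a prostaglandin synthase, measured 1.81, 12.1 and 1.39 FPKM against 0 and 0.536 (1.84 ± 0.53). H2-T9, a class I histocompatibility gene with close paralogs, measured 7.26, 9.73 and 3.78 FPKM against 0.51 and 1.58 (1.93 ± 0.38). None of the 3 was called in the WT E13 comparison, where their differences were -0.27 ± 0.47, 1.84 ± 0.74 and 0.52 ± 0.73.

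The largest decrease was that of Akr1b3, the aldose reductase of the polyol pathway. It was listed at 0 in monosome c0 and c1 and at 1.28 FPKM in c2, and measured 27.3 and 9.71 FPKM in total RNA (-3.72 ± 0.69, limma adjusted p = 0.0112). Tspo, a translocator protein of the outer mitochondrial membrane, measured 2.12, 1.21 and 2.20 FPKM in monosome RNA and 16.6 and 7.15 FPKM in total RNA (-2.09 ± 0.35). Aamp, an angio-associated protein with WD repeats, measured 17.1, 24.3 and 25.9 FPKM against 96.9 and 65.7 (-1.81 ± 0.28). For these genes every monosome value lay below both total RNA values, which was a condition for naming them. Total RNA c0 was the higher of the total RNA libraries.

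The other genes with a large decrease were of several kinds. Pfkl, the liver-type phosphofructokinase of glycolysis, measured 17.0, 17.1 and 16.8 FPKM in monosome RNA and 71.2 and 41.6 FPKM in total RNA (-1.63 ± 0.37). Ctsl, a lysosomal protease, measured 6.56, 8.63 and 10.5 FPKM against 35.6 and 25.1 (-1.72 ± 0.35). Itm2a, a membrane protein with a BRICHOS domain, measured 9.60, 7.13 and 12.7 FPKM against 39.8 and 26.5 (-1.66 ± 0.39). Tbl3, a factor of small-subunit ribosome assembly, measured 6.61, 5.43 and 8.76 FPKM against 31.1 and 17.7 (-1.65 ± 0.39), and Ppp1r35, a centriolar protein, 0.896, 4.33 and 5.74 FPKM against 15.0 and 10.2 (-1.71 ± 0.49). Hbb-b1, an adult beta globin of red cells whose reads may be split among globin paralogs, measured 95.4, 74.99 and 82.7 FPKM against 371 and 196.5 (-1.67 ± 0.42), beside erythroid marker sums that were highest in total RNA c0. The groups did not overlap for any of these genes, which was a condition for naming them.

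**Figure D1:**
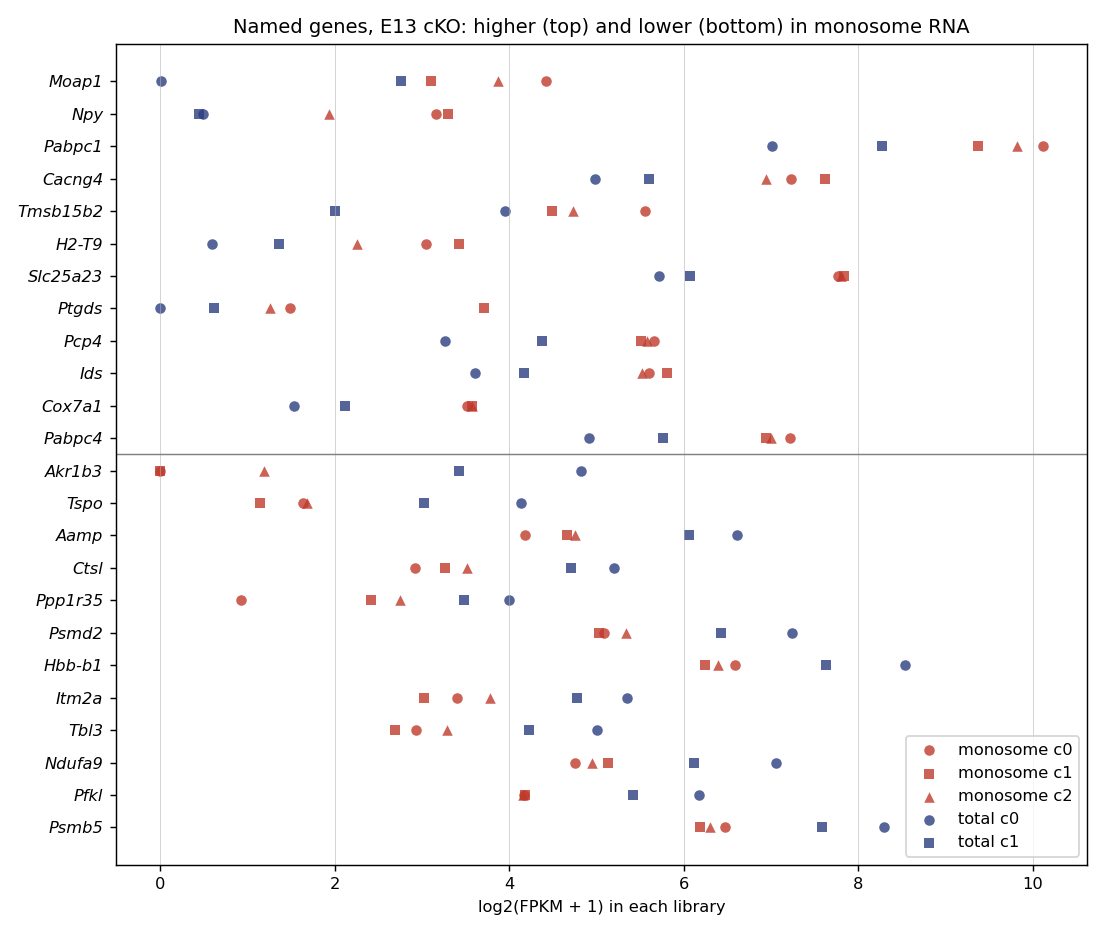
Level of the 12 higher and 12 lower genes with the largest difference in each of the 5 E13 cKO libraries, on a log2(FPKM + 1) axis; red marks are monosome and blue marks total RNA libraries, and the shape gives the column (circle c0, square c1, triangle c2). Red and blue marks are apart in every gene because genes were named only where the groups did not overlap. In each of the 12 lower genes the blue circle of total RNA c0 lies farther from the red marks than the blue square of c1.

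The proteasome, the protease that degrades ubiquitin-tagged proteins, was the gene list with the largest share of calls. Of its 31 tested subunits 21 fell in monosome RNA, 0 rose and 10 were not called, beside 3.71% of all genes called lower. The median difference was -1.01, and it was -1.08 against total RNA c0 and -0.83 against c1. Summed over the subunits, proteasome mRNA made up 0.272, 0.345 and 0.314% of the FPKM of the monosome libraries and 0.831 and 0.709% of the total RNA libraries, so both total RNA libraries lay above all monosome libraries. Psmd8, a lid subunit, was the 1 member not below 0 (0.01 ± 0.40), and its values overlapped.

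Proteasome genes fell in both parts of the particle. In the catalytic core, Psmb5, which carries the chymotrypsin-like activity, measured 87.5, 72.0 and 77.8 FPKM in monosome RNA and 312 and 191 FPKM in total RNA (-1.62 ± 0.26, limma adjusted p = 0.0112). Psmb3, a noncatalytic core subunit, measured 113, 125 and 108 FPKM against 401 and 234 (-1.41 ± 0.26). In the regulatory particle, the ATPase Psmc5 measured 55.0, 58.8 and 55.4 FPKM against 188 and 134 (-1.48 ± 0.26). Psmc4, another of the ATPases that unfold substrates, measured 58.7, 50.2 and 57.4 FPKM against 182 and 117 (-1.38 ± 0.25), and Psmd7 of the lid 38.7, 58.5 and 48.9 FPKM against 139 and 93.2 (-1.23 ± 0.24). Psmd2, the scaffold subunit that receives substrates, measured 32.8, 31.7 and 39.5 FPKM against 149.5 and 84.7 (-1.68 ± 0.32). Polysome RNA lay on the other side of total RNA, with 10 subunits called higher, 0 lower and a median of 0.77, beside 7.87% of all genes called in that comparison. Between polysome and monosome RNA the median was 1.78 and 28 subunits were called higher in polysome RNA, beside 2797 of all 12302 genes called higher. These comparisons share the total RNA and the monosome libraries with the main one.

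The TRiC chaperonin, which folds actin and tubulin, and its main substrates were also lower in monosome RNA. Of 8 TRiC subunits 4 fell (50.0%, beside 3.71% of all genes) and 4 were not called, with a median of -0.80, which was -1.05 against total RNA c0 and -0.55 against c1. Cct3 measured 87.7, 93.4 and 109.7 FPKM in monosome RNA and 316 and 175 FPKM in total RNA (-1.28 ± 0.34). Cct7 measured 51.8, 91.7 and 63.8 FPKM against 272 and 122 (-1.43 ± 0.39), with Cct8 at -1.19 ± 0.35 and Cct6a at -1.01 ± 0.30. Tcp1, the 1 subunit with a difference above 0, measured 276, 225 and 253 FPKM against 208 and 174 (0.39 ± 0.30, not called).

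Of 14 tubulin and actin genes all had a difference below 0 and 3 fell (21.4%), with a median of -0.70. This median depended on the total RNA library, at -1.25 against c0 and -0.33 against c1. Actb, which encodes cytoplasmic beta actin, measured 265, 307 and 312 FPKM in monosome RNA and 776 and 559 FPKM in total RNA (-1.16 ± 0.33). Tubb4b measured 83.5, 78.3 and 72.0 FPKM against 335 and 148 (-1.51 ± 0.38), and Tubb6 4.24, 5.24 and 7.36 FPKM against 15.0 and 14.5 (-1.28 ± 0.30). The neuronal tubulin Tubb3 measured 129.98, 194 and 161 FPKM against 444 and 274 and was not called (-1.12 ± 0.38, limma adjusted p = 0.0685).

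Factors of DNA replication were lower as well. Of 45 tested genes 15 fell (33.3%, beside 3.71% of all genes) and 0 rose, with a median of -0.54, -0.76 against total RNA c0 and -0.43 against c1. Pcna, the sliding clamp of the replicative polymerases, measured 152, 229 and 185 FPKM in monosome RNA and 430.1 and 364 FPKM in total RNA (-1.08 ± 0.24, limma adjusted p = 0.0175). Rpa2, a subunit of the protein that coats single-stranded DNA, measured 27.5, 47.6 and 35.4 FPKM against 119 and 78.2 (-1.40 ± 0.27). The ribonucleotide reductase subunit Rrm1 measured 19.2, 16.5 and 17.3 FPKM against 46.1 and 29.8 (-1.03 ± 0.25). Thymidine kinase Tk1 (-0.84 ± 0.21), the clamp loader Rfc3 (-0.96 ± 0.24) and the ligase Lig1 (-1.11 ± 0.28) were also called. Of 34 genes of mitosis 4 fell, Cdk1 (-1.38 ± 0.26), Cdca8 (-1.28 ± 0.24), Bub3 (-1.10 ± 0.27) and Plk1 (-1.31 ± 0.38), which is 11.8%, and the median was -0.41, at -0.40 against total RNA c0 and -0.38 against c1. In WT E13, 22 replication and 12 mitosis genes were called lower, with medians of -0.86 and -0.70, beside 1200 of all 12123 genes called lower there.

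Ribosomal protein mRNAs were higher in monosome RNA as a group, although few passed the test singly. Of 49 large-subunit genes 48 had a difference above 0, 6 rose and 0 fell, and of 33 small-subunit genes 32 lay above 0, 2 rose and 0 fell. These calls are 12.2% of the large-subunit and 6.06% of the small-subunit genes, beside 6.03% of all genes called higher, so the call rate of the small subunit was near that of all genes. The values of 44 and 30 of them lay above both total RNA libraries in all monosome libraries, where 41.8% of all genes did not overlap in either direction. The medians were 0.79 and 0.94. They were 0.70 and 0.85 against total RNA c0 and 0.88 and 0.98 against c1, so for these genes c0 was the nearer library. Large-subunit mRNAs made up 23.4, 19.7 and 21.9% of the FPKM of the monosome libraries and 16.2 and 17.3% of the total RNA libraries, and small-subunit mRNAs 20.7, 17.4 and 19.4% and 14.6 and 15.1%. Many ribosomal protein genes have processed pseudogenes that share reads, so single values are uncertain.

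The 6 large-subunit genes that rose were Rpl4, Rpl21, Rpl5, Rpl22l1, Rpl31 and Rpl17. Rpl4 measured 3443, 2956 and 3283 FPKM in monosome RNA and 1131 and 1465 FPKM in total RNA (1.32 ± 0.31, limma adjusted p = 0.0191). Rpl5, which binds the small ribosomal RNA of the large subunit before assembly, measured 2318, 1632 and 2154 FPKM against 772 and 943 (1.24 ± 0.32). Rpl22l1 measured 2222, 1467 and 1833 FPKM against 634 and 888 (1.27 ± 0.35). In the small subunit Rps3a measured 5526, 4132 and 4938 FPKM against 1739.5 and 2387 (1.24 ± 0.36), and Rps4x 8777, 6198 and 7496 FPKM against 3360.2 and 3197 (1.18 ± 0.36). The exceptions were Rpl26, at 52.7, 26.8 and 71.0 FPKM against 53.2 and 71.5 (-0.40 ± 0.40), and Rps2, at 5442, 4539.8 and 4434 FPKM against 7070.1 and 4431 (-0.23 ± 0.36). The listed span of Rps2 (chromosome 17, 24718121 to 24721927, plus strand) contains Snhg9 (24719531 to 24719965) on the other strand. Snhg9 lies upstream of the annotated transcription start of Rps2. The library kit does not keep the strand, and a part of Snhg9 reads in the Rps2 values was not tested.

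Other mRNAs of the TOP class were described from a list of 23 translation factors and related genes. In it 5 rose (21.7%), 0 fell and 19 lay above 0, with a median of 0.60, 0.50 against total RNA c0 and 0.69 against c1. Besides Pabpc1 and Pabpc4, these were Eef1a1, Nsa2 and Eif3f. Eef1a1 (chromosome 9, 78478453 to 78481724, minus strand), which delivers aminoacyl-tRNA to the ribosome, measured 15387, 12958 and 15650.0 FPKM in monosome RNA and 5486 and 7074 FPKM in total RNA (1.23 ± 0.31, limma adjusted p = 0.0255). Eif3f, a subunit of the initiation factor that bridges mRNA and small subunit, measured 907, 757 and 847 FPKM against 454 and 339.9 (1.09 ± 0.32). Nsa2, a factor of large-subunit assembly, measured 162, 107 and 155 FPKM against 51.6 and 84.8 (1.06 ± 0.30).

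The transcription starts of these genes are shown because the TOP tract, a C followed by pyrimidines at the first base of the mRNA, is the feature that defines the class. Each line gives 30 bases of RefSeq sequence (GRCm38.p6), 12 before the start in the RefSeq promoter table and the rest from it on, with capitals for a run that begins with C, goes on with C or T and starts within 10 bases of that start. The first 5 lines have such a run of at least 7 bases, and of these genes Rps15a was not called. The next pair are called ribosomal protein genes without a run, and the last pair are proteasome genes without one. The called genes Rpl5, Rps3a, Pabpc4 and Nsa2, which are not shown, had no run either.
Eef1a1, chr9:78481707-78481736, minus strand: ggctccgCCCTCTTCCCgagggtgggggag
Eif3f, chr7:108934403-108934432, plus strand: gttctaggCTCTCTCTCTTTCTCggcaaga
Rpl22l1, chr3:28805496-28805525, plus strand: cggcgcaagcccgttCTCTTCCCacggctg
Rpl31, chr1:39367839-39367868, plus strand: cctcctcgCCTCCCCgtgacccggaagttg
Rps15a, chr7:118116130-118116159, minus strand: tctttctgccatCTTCCCTCgccggtgagt
Rpl4, chr9:64173375-64173404, plus strand: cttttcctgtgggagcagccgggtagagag
Rps4x, chrX:102189374-102189403, minus strand: aggctgggcggagcaacccaggctccagcg
Psmb3, chr11:97703422-97703451, plus strand: cctgagaaagccagagccggtttgcaggca
Psmc5, chr11:106256173-106256202, plus strand: cctgccgagagagggaagatggcgcttgat

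A run of at least 7 bases was found at the start of 30 of 61 ribosomal protein genes with a RefSeq promoter (49.2%), read on the strand of the gene only. It was found in 15.4% of the 9765 tested genes with a promoter and in 14.1% of all 27025 genes in the promoter table. Of 25 proteasome genes with a promoter 3 had such a run, so the pair shown does not stand for a lack of runs in that list. Ribosomal protein genes with and without a run had nearly the same median difference, 0.81 and 0.82. Of those with a run 6.67% were called higher and of those without 12.9%, beside 6.03% of all genes. Among the other 9704 tested genes the medians with and without a run were 0.08 and 0.05. The letters in the window depend on which start is annotated, so a missing run says only that none began within 10 bases of it. The Rpl4 window opens with a C and further pyrimidines, a run that begins 12 bases before the start and was not counted.

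**Figure D2:**
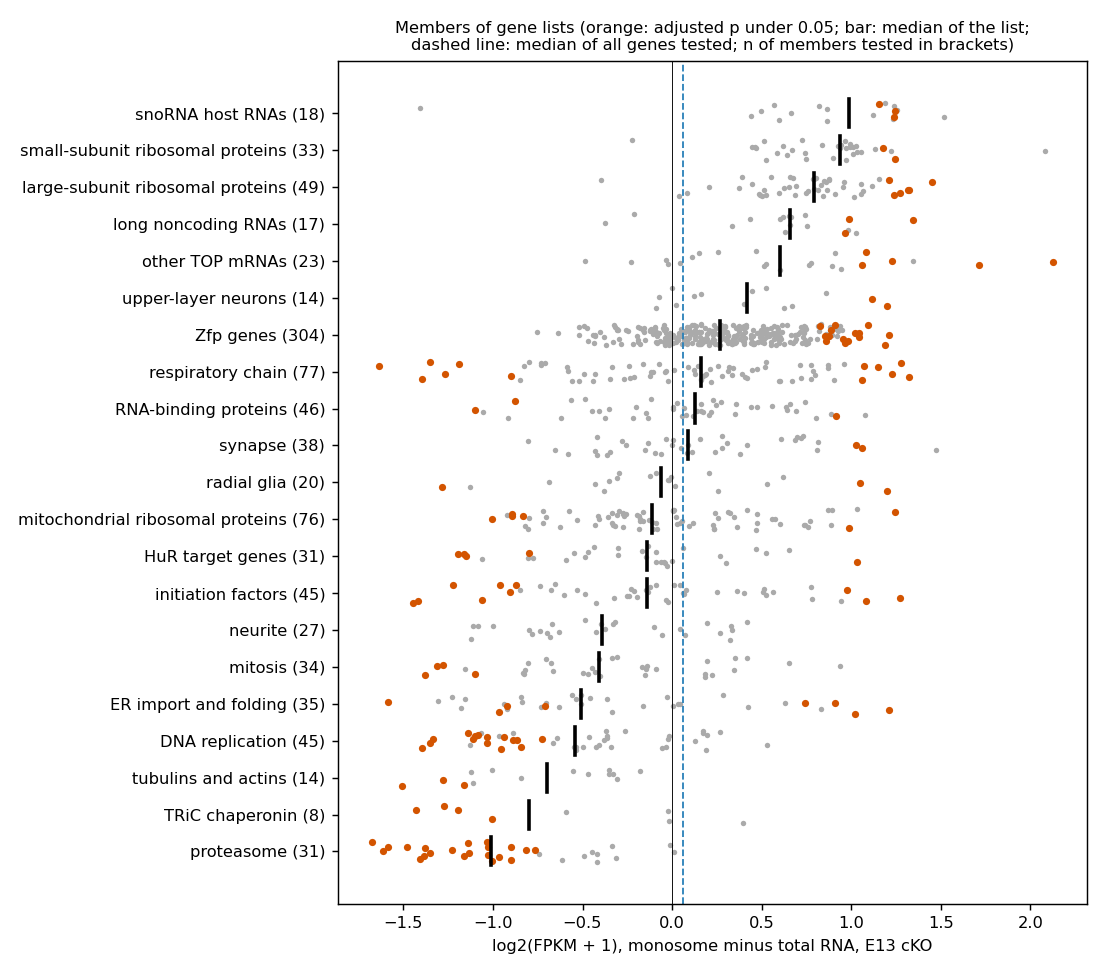
Difference of each tested member of 21 gene lists between monosome and total RNA on the log2(FPKM + 1) scale, with called members in orange, a black bar at the median of the list and a dashed line at the median of all genes (0.06). The lists run from the proteasome at the bottom (median -1.01, 21 of 31 called lower) to snoRNA host RNAs and ribosomal proteins at the top, where most points lie right of 0 and few are called.

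Transcripts that carry no long reading frame were also higher. SnoRNA host RNAs carry small nucleolar RNAs in their introns, and their spliced exons are known to bind ribosomes and to be degraded by nonsense-mediated decay. Of 18 such RNAs 17 lay above 0, 3 rose (16.7%) and 0 fell, with a median of 0.99, 1.19 against total RNA c0 and 0.60 against c1. Gas5 measured 59.2, 32.1 and 44.6 FPKM in monosome RNA and 12.9 and 25.2 FPKM in total RNA (1.24 ± 0.38), Snhg1 488, 247 and 313 FPKM against 155 and 146 (1.15 ± 0.32) and Snhg4 84.8, 31.8 and 61.5 FPKM against 18.3 and 28.1 (1.24 ± 0.35). Snhg9, the exception, was listed at 0 in all libraries but total RNA c1, at 6.02 FPKM. In polysome RNA 12 of these RNAs were called below total RNA, with a median of -1.50, beside 634 of all 12302 genes called lower there. Of 17 long noncoding RNAs 3 rose, Neat1, Rian and 2610017I09Rik (Pantr1), which is 17.6% beside 6.03% of all genes, and the median was 0.66, at 0.94 against total RNA c0 and 0.45 against c1. Neat1, which builds nuclear paraspeckles, measured 4.49, 3.72 and 4.11 FPKM against 0.542 and 1.61 (1.35 ± 0.31). That transcript is nuclear in textbook accounts, and how much nuclear RNA entered the fractions is not given by the labels.

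Genes of short proteins were higher in monosome RNA. Lengths came from the GENCODE M21 coding sequence of 11823 of the tested genes (96.1%). The 254 genes of proteins under 100 residues had a median difference of 0.81, and 80 rose (31.5%, beside 6.03% of all genes) and 1 fell. For 100 to under 200 residues the median of 1333 genes was 0.29, with 141 higher and 26 lower. The medians were 0.01 for 200 to under 400 residues (3454 genes, 194 higher and 229 lower), -0.02 for 400 to under 800 (4315 genes, 194 and 171) and 0.05 for 800 and more (2467 genes, 70 and 25). Against the total RNA libraries c0 and c1 the shortest class had medians of 0.74 and 0.87. Across genes Pearson's r with log2 length was -0.138 and Spearman's rho -0.111, over genes that also share expression level and transcript length.

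In polysome RNA the shortest class lay below total RNA, with a median of -0.95. It was 0.69 in the monosome comparison of WT E13 and 0.72 in that of HuR cKO P0. Few members of the class are ribosomal proteins. Of the 254 genes 10 encode one, none of which was called, and the 223 genes in neither that list nor those of the respiratory chain and mitochondrial ribosome had a median of 0.78, with 74 higher and 1 lower. The gene that fell was Ifi27l2a, an interferon-induced gene at 0, 0 and 1.48 FPKM against 2.58 and 3.42 (-1.55 ± 0.47), named after its value was seen.

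The respiratory chain shows the same order within one machinery. Of its 77 nuclear genes 6 rose and 6 fell (15.6%, beside 9.75% of all genes), and the median was 0.16, at -0.05 against total RNA c0 and 0.35 against c1. The 18 genes of proteins under 100 residues all lay above 0, with a median of 0.79, and 5 of them rose. The 59 longer ones had a median of -0.07, and 1 rose and 6 fell. Of the 12 with at least 300 residues, a limit chosen after the values were seen, 11 lay below 0 and 5 fell. Among the short ones, Cox7c of cytochrome c oxidase (63 residues) measured 1892, 1397 and 1403 FPKM in monosome RNA and 616 and 619 FPKM in total RNA (1.32 ± 0.30). The complex I subunit Ndufa1 (70 residues) measured 521, 419 and 485 FPKM against 195 and 208 (1.23 ± 0.27), and Ndufc1 (76 residues) 539, 425 and 444 FPKM against 224 and 164 (1.28 ± 0.32).

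Among the long ones, the ATP synthase subunit Atp5b (529 residues) measured 246, 295 and 245 FPKM against 905 and 492 (-1.35 ± 0.31). Uqcrc1 of complex III (480 residues) measured 43.2, 48.6 and 42.4 FPKM against 171 and 83.0 (-1.40 ± 0.33), and Ndufa9 of complex I (377 residues) 26.02, 33.9 and 29.95 FPKM against 132 and 68.2 (-1.64 ± 0.27). Sdha (-1.27 ± 0.34) and Ndufv1 (-1.19 ± 0.29) were the other long members that fell. Ndufv3, annotated here with 468 residues and known to encode a much shorter isoform too, was the exception at 683, 532 and 594 FPKM against 297 and 273 (1.07 ± 0.27). A value per gene does not separate its isoforms.

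**Figure D3:**
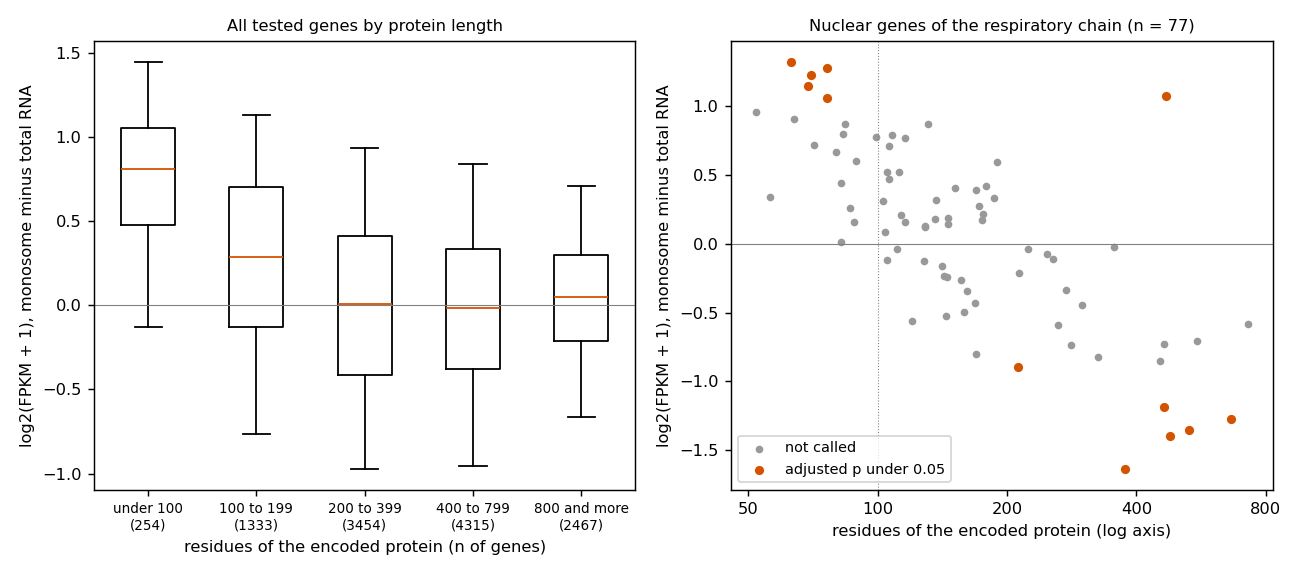
Left, difference between monosome and total RNA for all tested genes in 5 classes of protein length, with the median in orange, boxes from the lower to the upper quartile and whiskers from the 5th to the 95th percentile. Right, the 77 nuclear genes of the respiratory chain by length on a log axis, where called genes under 100 residues lie above 0 and most long ones below it, apart from Ndufv3 (468 residues, 1.07).

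Of 35 genes of ER import and folding 4 rose and 4 fell (22.9%, beside 9.75% of all genes called). The median was -0.51, at -0.53 against total RNA c0 and -0.39 against c1. In the signal recognition particle, which brings nascent secretory proteins to the ER, Srp9 (86 residues) measured 253, 197 and 230.2 FPKM in monosome RNA and 120.1 and 102 FPKM in total RNA (1.02 ± 0.31). Srp14 (110 residues, 0.91 ± 0.27) and Srp19 (144 residues, 1.21 ± 0.35) also rose. The disulfide isomerase Pdia6 measured 32.9, 48.7 and 47.5 FPKM against 165 and 102 (-1.59 ± 0.39). Of the signal peptidase subunits of similar length, Sec11c rose (0.74 ± 0.23) and Sec11a fell (-0.97 ± 0.21). Of 76 mitochondrial ribosomal proteins, Mrpl33 (65 residues, 1.25 ± 0.34) and Mrpl30 (160 residues, 0.99 ± 0.30) rose and 4 fell, among them Mrps22 (359 residues, -0.89 ± 0.21). In all 7.89% were called, beside 9.75% of all genes, and the list median was -0.11, at -0.17 against total RNA c0 and 0.10 against c1.

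Initiation factors went both ways. Of 45 tested genes 3 rose and 7 fell (22.2%, beside 9.75% of all genes), and the median was -0.14, at -0.24 against total RNA c0 and -0.04 against c1. Eif4ebp2, which blocks the cap-binding protein in the absence of mTOR signalling, measured 272, 299 and 257 FPKM in monosome RNA and 115 and 112 FPKM in total RNA (1.27 ± 0.26, limma adjusted p = 0.0135). Eif4a3, a helicase of the exon junction complex, measured 38.01, 43.5 and 41.4 FPKM against 148 and 86.4 (-1.44 ± 0.26). Eif6, which keeps ribosomal subunits apart, measured 23.1, 32.1 and 26.5 FPKM against 107 and 50.8 (-1.42 ± 0.29). Atf4, a stress-response factor whose mRNA is known for upstream reading frames that restrain its translation, measured 348, 259 and 252 FPKM against 141 and 149 (0.96 ± 0.27) and was 1 of 2 genes that rose among 18 with such frames. The other was Tmem183a (0.94 ± 0.26), and Uchl1 fell (-1.15 ± 0.28). These calls are 16.7% of the 18 genes, beside 9.75% of all genes called, and their list median was 0.26.

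Of 31 genes known from the literature as HuR targets, 24 lay below 0 and 7 above it, with a median of -0.14, which was -0.13 against total RNA c0 and -0.31 against c1. Among them 1 rose and 4 fell, so that 16.1% were called beside 9.75% of all genes. Xiap, an inhibitor of caspases, measured 27.5, 26.3 and 27.4 FPKM in monosome RNA and 9.63 and 16.7 FPKM in total RNA (1.03 ± 0.26). Trp53, which encodes p53, measured 31.3, 30.9 and 30.1 FPKM against 95.9 and 50.1 (-1.15 ± 0.34). The other members that fell were Actb, the cyclin-dependent kinase inhibitor Cdkn1a (-0.80 ± 0.23) and the glucose transporter Slc2a1 (-1.20 ± 0.35). In WT E13 neocortex 2 of these genes were called higher and 7 lower, with a median of -0.42, beside 18.5% of all genes called there. Of 46 RNA-binding proteins, Nova1, a neuronal splicing factor, rose (0.91 ± 0.28) and Hnrnpd (-0.88 ± 0.24) and Hnrnpa2b1 (-1.10 ± 0.33) fell. These are 6.52%, beside 9.75% of all genes called, and the list median was 0.13, at 0.28 against total RNA c0 and -0.05 against c1. The splicing factors Srsf2 (-1.21 ± 0.24), Srsf3 (-1.12 ± 0.24) and Srsf7 (-1.06 ± 0.23) fell among 31 SR and CLK genes. That is 9.68%, beside 9.75% of all genes called, and 18 of the 31 lay above 0. The SR and CLK list had a median of 0.08, at 0.24 against total RNA c0 and -0.08 against c1.

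Genes of the developing cortex changed singly. Of 14 upper-layer neuron genes 2 rose (14.3%, beside 6.03% of all genes called higher). The list median was 0.42, at 0.66 against total RNA c0 and 0.33 against c1. Cux1, a transcription factor of upper layers, measured 118, 128 and 84.1 FPKM in monosome RNA and 41.9 and 58.1 FPKM in total RNA (1.12 ± 0.26), and Lhx2, a selector of cortical fate, 469, 509.6 and 371 FPKM against 141 and 266 (1.20 ± 0.32). Among 20 radial glia genes Hopx (73 residues) rose, at 54.9, 39.2 and 52.3 FPKM against 19.5 and 26.6 (1.05 ± 0.27), as did Lhx2. The progenitor factor Sox3 fell from 29.9 and 25.4 FPKM in total RNA to 7.17, 12.1 and 14.1 FPKM (-1.29 ± 0.35). These calls are 15.0% of the radial glia list, beside 9.75% of all genes called. In that list 13 genes lay below 0, with a median of -0.06, at 0.11 against total RNA c0 and -0.26 against c1. Nr4a2 rose among 13 deep-layer genes, at 13.0, 16.7 and 15.4 FPKM against 2.64 and 8.31 (1.45 ± 0.35). That is 7.69% of the deep-layer list, beside 6.03% of all genes called higher, and the list median was 0.12. The synaptic vesicle proteins Vamp2 (116 residues, 1.03 ± 0.22) and Cplx2 (134 residues, 1.06 ± 0.31) rose among 38 synapse genes, which is 5.26% beside 6.03% of all genes, and the list median was 0.09. The values of Cplx2 overlapped.

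Of 13 genes of the ganglionic eminence and its interneurons, which enter the cortex from there, 8 lay below 0 and 3 rose, all at low levels. The genes that rose are 23.1% of the list, beside 6.03% of all genes called higher. The list median was -0.05, at 0.28 against total RNA c0 and -0.32 against c1. Besides Npy the genes that rose were Lhx6, at 2.47, 2.11 and 1.48 FPKM against 0.54 and 0.32 (1.07 ± 0.22), and Sst, at 4.28, 1.45 and 0.875 FPKM and listed at 0 in both total RNA libraries, so that no fold is given. None of 12 intermediate progenitor and 27 neurite genes was called, the neurite list with a median of -0.39, which was -0.24 against total RNA c0 and -0.59 against c1. Of the other lists, 15 of 304 genes named Zfp, mostly zinc finger transcription factors, rose and 0 fell, which is 4.93% beside 6.03% of all genes called higher. Their median was 0.27, at 0.45 against total RNA c0 and 0.10 against c1. Of 10 microglial genes 6 lay above 0, with a median of 0.05, and C1qa and C1qb of the complement system fell, at -1.36 ± 0.36 and -0.98 ± 0.28. These calls are 20.0% of the microglial list, beside 3.71% of all genes called lower. Hbb-b1 was the only one called of 12 erythroid genes, whose median was -0.73, at -1.39 against total RNA c0 and -0.10 against c1. Of 10 genes of choroid plexus and hem 5 lay above and 5 below 0, with a median of -0.04, and the Wnt agonist Rspo1 was the 1 called, at 231, 134 and 91.0 FPKM in monosome RNA against 66.0 and 52.6 FPKM in total RNA (1.25 ± 0.39). Such single calls are 8.33% of the erythroid and 10.0% of the choroid plexus and hem genes, beside 9.75% of all genes called. No member of the 38 tested protocadherins, 30 matrix, 12 endothelial, 12 meningeal or 7 replication-dependent histone genes passed the limma threshold. At an unadjusted limma p under 0.05 there were 2, 3, 3, 3 and 1, beside 3389 of all 12302 genes.

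Of 28 BAF chromatin remodeler subunits Smarcb1, a core subunit, fell, at 40.4, 47.9 and 41.2 FPKM against 132 and 65.1 (-1.09 ± 0.31), and the list median was -0.02, at 0.10 against total RNA c0 and -0.16 against c1. That call is 3.57% of the list, beside 3.71% of all genes called lower. None of the 9 GABA-A receptor subunits that passed the filter on low values, of 14 in the table, was called in limma, and 0 had an unadjusted p under 0.05.

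**Figure D4:**
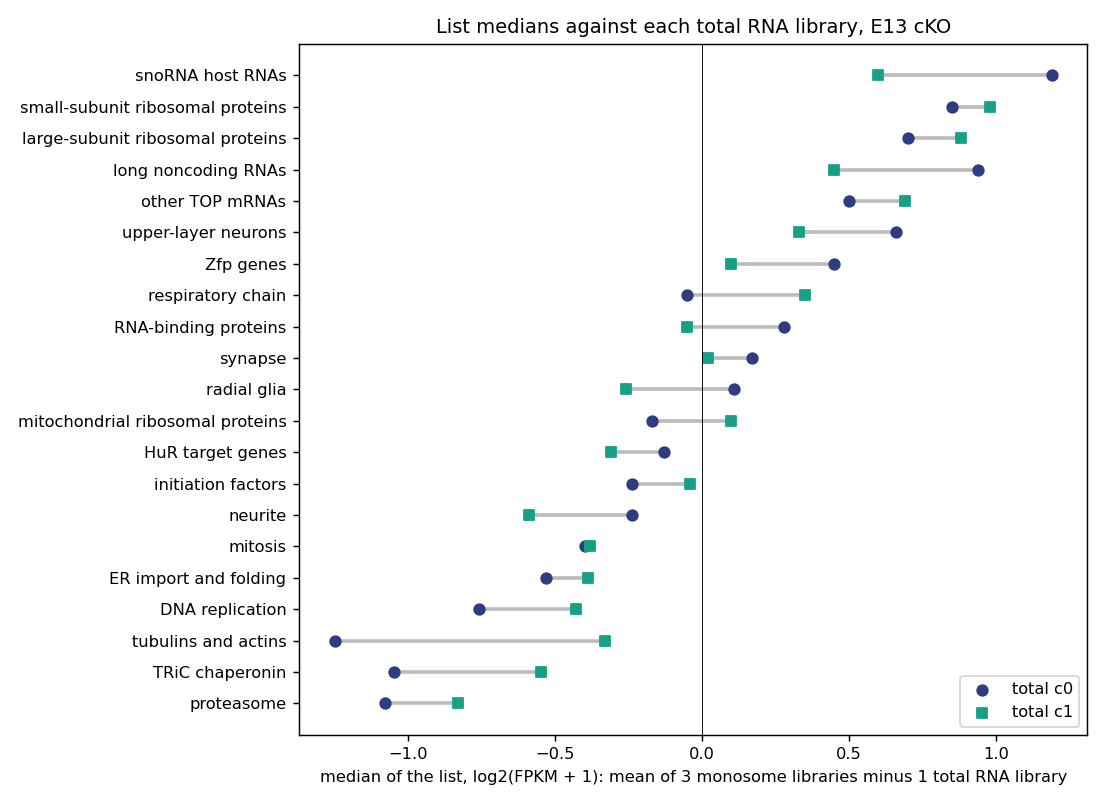
Median difference of each of the 21 lists plotted when the mean of the 3 monosome libraries is set against total RNA c0 (blue circles) or total RNA c1 (green squares) alone, on the log2(FPKM + 1) scale. The proteasome, TRiC and ribosomal protein lists keep their side of 0 against both, with the widest gap of the lists plotted at tubulins and actins (-1.25 and -0.33), while the respiratory chain, RNA-binding protein, radial glia and mitochondrial ribosome lists change sign.

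The same comparison in WT E13 neocortex, which shares no library with this one, called 2242 of 12123 genes (18.5%). Across the 12001 genes tested in both, Pearson's r of the differences was 0.808 and Spearman's rho 0.813, over genes that share transcript length and base composition. Of the 1188 genes called here and tested there, 784 were also called in WT, all in the same direction, which is 66.0% of the genes called here and 35.0% of those called in WT. In all 1177 of the 1188 (99.1%) had the same direction. The test of the difference between the genotypes called 0 of 12233 genes in limma (0.0%), with 232 genes at an unadjusted p under 0.05, so no gene was shown to differ between the libraries labelled HuR cKO and WT, in which the targeted gene did not check the label. With 2 or 3 libraries a group this does not show that the genotypes were alike. The WT medians were -1.20 for the proteasome, 1.17 and 1.24 for large and small ribosomal proteins and 0.91 for the other TOP mRNAs.

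At P0, HuR cKO neocortex had 2815 of 12302 genes called between monosome and total RNA (22.9%). Pearson's r with the E13 differences was 0.594 and Spearman's rho 0.593 across genes. Of the 1199 genes called at E13, 722 were called at P0, 719 of them in the same direction, which is 60.2% of the E13 and 25.6% of the P0 calls. The proteasome list had a median of -1.0 at P0, with 19 genes lower and 1 higher, beside -1.01 at E13. Ribosomal protein medians were 2.36 and 2.42 at P0 for large and small subunits, with 47 of 49 and 32 of 33 genes higher, beside 0.79 and 0.94 at E13. TRiC subunits had a median of -0.01 at P0, with 3 higher and 1 lower. The test of the age difference called 1 of 12302 genes (0.00813%), Eef1a1, so the larger ribosomal protein values at P0 did not pass it for any single gene.

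**Figure D5:**
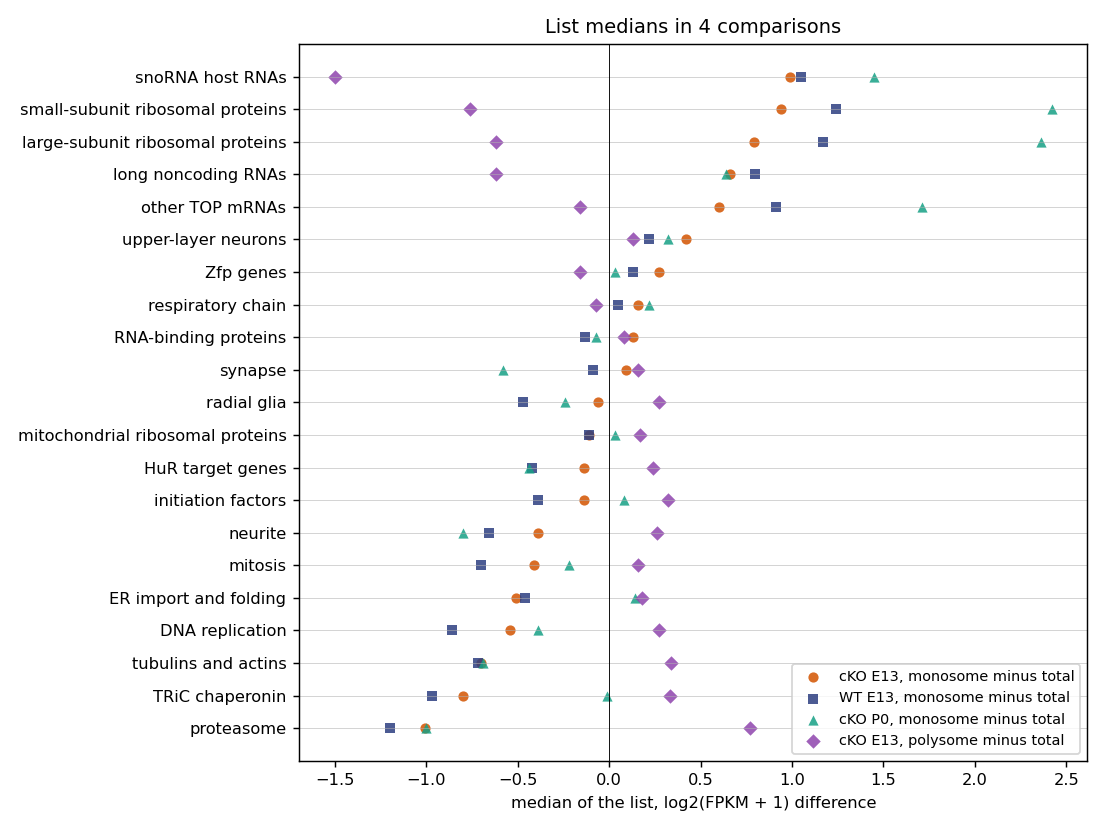
Medians of the same lists in monosome minus total RNA of cKO E13 (orange circles), WT E13 (blue squares) and cKO P0 (green triangles) and in polysome minus total RNA of cKO E13 (purple diamonds, which share the total RNA libraries with the orange circles). Orange and blue marks lie close together in most lists, the green ribosomal protein marks (2.36 and 2.42) lie far to the right, and the proteasome lies at -1.01, -1.20 and -1.0 in monosome and at 0.77 in polysome RNA.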

How the data were processed

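Poly(A) libraries were made with a TruSeq kit that does not keep the strand and read as pairs of 100 bases, per the labels' protocols. The submitters' processing notes name TopHat2 2.0.6, Bowtie2 2.0.5.0, Cuffdiff and the builds mm10 and GRCm38. Which annotation was used, and how Cuffdiff scaled the libraries, is not stated in the labels or headers. The authors deposited FPKM in one table per genotype. A total of 26 of 23284 rows named dates or numbers and were left out. Columns of HuR cKO start at number 0 and sample titles at 1, so columns were tied to groups only. FPKM depend on the transcript length used and on multi-mapped reads, and the fragment sizes are unknown.

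The test was limma (version 3.58.1, R 4.3.3) on log2(FPKM + 1) values (intensity trend, two-sided, Benjamini-Hochberg over all genes tested), in a fit of the 16 HuR cKO libraries in 6 groups with 10 residual degrees of freedom. The genotype difference came from a fit of all 31 libraries. The main test was checked on simulated data. It called 32% of genes changed by 1 on the log2 scale, 95% of those changed by 2 and 0.11% of unchanged genes. Many changes of about 1 can therefore be missed. The simulation changed 100 genes by each amount, all well above the filter on low values, with noise independent between genes. It held no shift of a whole library such as that of total RNA c0, so these rates need not hold for the real libraries. P-values measure the spread between libraries, which may be technical. The members and the 39 gene lists were chosen with earlier results of these data known. Named were Elavl1, the 12 called genes of each direction whose difference was largest, with no overlap between groups and a group mean of at least 5 FPKM (predicted genes, small RNAs and pseudogenes left out), and up to 6 members per list by adjusted p. The single members named as exceptions were chosen after their values were seen. Of listed names 971 matched by symbol, 20 by synonym and 5 not at all, and 440 by a shared prefix. Protein lengths came from GENCODE coding sequences.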

Additional observations from a re-analysis of the deposited data

Results flagged for a closer look

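Eef1a1, the elongation factor gene, was the 1 gene whose monosome against total RNA difference differed between E13 and P0 in HuR cKO neocortex by the test of the difference itself (limma adjusted p = 3.99e-13). It measured 15387, 12958 and 15650.0 FPKM in the E13 monosome libraries and 5486 and 7074 FPKM in total RNA. At P0 it was listed at 0 in both monosome libraries, with 4485, 8553 and 8240.0 FPKM in total RNA, and it was listed at 0 in all 3 WT P0 monosome libraries too. Every cell uses this gene, and no fold is given against a listed 0.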

How the results depend on the processing

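The 1199 calls between monosome and total RNA became 523 when only the groups compared entered the fit, 0 to 946 when each library was left out in turn (0 without total RNA c0), and 1 without both E13 columns c0, an alternative chosen after seeing the data. That gene was Snora43, a small RNA. The other alternatives (0.1 or 5 FPKM added, no filter or a mean of at least 5 FPKM, median ratio rescaling, no intensity trend) gave 820 to 1342 calls. The genotype difference, with 0 calls, had 6 with no filter, 0 to 1 without single libraries (again Snora43, without total RNA c0) and 1 without both columns c0. The age difference, with 1 call, had 5 with 5 FPKM added, 12 with no filter, 1 to 3 without single libraries and 2 without both columns c0. None of the 241 named genes and list members changed direction where it was called in either fit. Of 119 called, all 119 stayed so with median ratio rescaling, 107 with 0.1 FPKM added, 71 with no filter, 72 with only the groups compared and 0 without total RNA c0. Counting runs of at least 5 in place of 7 bases, 60.7% of ribosomal protein genes and 36.9% of tested genes had one. No paired analysis was possible because the HuR cKO columns could not be tied to the replicate numbers of the labels. Depth in counts is unknown, so its effect on genes near 1 FPKM was not tested.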
